A study of Mus musculus with 8 samples.

Results

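Non-collagen matrix and fibroblast genes were followed in pancreatic islets attacked by T cells, using all probe sets of the array that the platform annotation assigns to exactly 1 of 10 genes: Fn1, Bgn, Dcn, Lum, Sparc, Postn, Sod3, Acta2, Pdgfra and Pdgfrb. This rule selected 22 of 45101 probe sets, a probe set being a group of short probes that together report 1 transcript. The series held 8 Affymetrix arrays of islets laser-captured from NOD.Scid mice, with the RNA of 5 mice pooled on each array. The NOD background is prone to autoimmunity, but NOD.Scid mice lack mature T and B cells. Diabetogenic islets (3 arrays, days 3, 4 and 8) came from mice given diabetogenic CD4+ BDC2.5 T cells, whose transgenic receptor recognises a beta cell antigen. Protected islets (4 arrays, days 3, 4, 5 and 8) came from mice given the same T cells plus anti-interferon-γ antibody in 2 doses, the first on the day before transfer and the other on day 2 after it. Untreated islets (1 array, day 0) came from NOD.Scid mice that received neither cells nor antibody. The labels name no control antibody, and each combination of arm and day is a single array, so the spread between mice was not measured. The diabetogenic arm has no day 5 array here, since the submitters describe those islets as too swollen with fluid to dissect. Neither the ages nor the sexes of the mice are given in the sources used here.

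Fibronectin, the product of Fn1, assembles into fibrils that anchor cells through integrins and is made by fibroblasts, by endothelium and by macrophages in healing tissue. Biglycan, decorin and lumican (Bgn, Dcn and Lum) are small leucine-rich proteoglycans that bind collagen fibrils, and free biglycan is also known as a signal to innate immune cells. SPARC and periostin (Sparc and Postn) are matricellular proteins, secreted into the matrix to modulate cells more than to build it, and Sod3 encodes the superoxide dismutase held in the matrix outside cells. Acta2 encodes smooth muscle actin, the usual marker of myofibroblasts, activated stellate cells and mural cells of vessels, and Pdgfra and Pdgfrb encode the growth factor receptors that mark fibroblasts and pericytes.

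RefSeq (build GRCm38.p6) supplied a promoter for 5 of the 10 genes. Those of Acta2 and Bgn are shown, as 1 member with higher values on all protected arrays and 1 with its highest values on both day 8 arrays. Each run covers 250 bases before to 50 after the listed start, 5′ to 3′ on the gene's strand. The Acta2 promoter lies at chr19:34255324-34255623 on the minus strand and the Bgn promoter at chrX:73483351-73483650 on the plus strand. Capitals mark matches, on either strand, to GGGCGG, to TATANAA or to a CArG box (CC and GG around 6 bases of which at least 5 are A or T).
Acta2 promoter: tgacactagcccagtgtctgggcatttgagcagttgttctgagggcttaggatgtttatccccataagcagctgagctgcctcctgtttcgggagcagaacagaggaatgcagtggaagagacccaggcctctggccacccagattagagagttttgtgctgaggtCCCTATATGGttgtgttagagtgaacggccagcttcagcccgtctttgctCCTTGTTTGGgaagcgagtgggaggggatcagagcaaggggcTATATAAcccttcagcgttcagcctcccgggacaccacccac
Bgn promoter: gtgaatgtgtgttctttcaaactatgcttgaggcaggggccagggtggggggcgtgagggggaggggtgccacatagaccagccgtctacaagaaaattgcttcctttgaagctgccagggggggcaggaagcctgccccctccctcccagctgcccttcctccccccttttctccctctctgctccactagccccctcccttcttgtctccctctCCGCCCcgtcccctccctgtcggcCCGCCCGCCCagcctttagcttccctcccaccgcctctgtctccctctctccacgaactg
The Acta2 run held 2 CArG boxes, the element read by serum response factor in smooth muscle genes, beginning 84 and 34 bases before the listed start, and 1 TATANAA, beginning at base 9 after it. The Bgn run held 3 GGGCGG matches, 2 of them overlapping. Of 32851 promoters of the same length, 9.98% held such a CArG box, 11.3% TATANAA and 35.7% GGGCGG. These matches describe letters only.

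The arrays differed in overall signal. The share of bright probe sets, at least 8 times their array's median, was 4.74%, 0.850% and 2% in diabetogenic islets on days 3, 4 and 8, between 2.23% and 5.34% on the protected arrays and 4.74% on the untreated one. Spiked hybridisation controls had a median intensity of 1.48 to 2.29 on the untreated and both day 3 arrays and of 551 to 1712 on the 5 later arrays. Actb signal at the 3' end, which gains over the 5' end in degraded RNA, was 5.54, 2.25 and 13.8 times that at the 5' end in diabetogenic islets on days 3, 4 and 8, 5.01, 9.24, 24.2 and 10.5 times in protected islets on days 3, 4, 5 and 8, and 1.86 times in untreated islets. The same ratio for Gapdh was 9.11, 2.78 and 19 on the diabetogenic arrays in that order. On the protected arrays it was 8.49, 10.5, 6.4 and 10.8, and in untreated islets 5.14. The 10 tested beta cell genes had a summed intensity of 3837 to 7171 on the diabetogenic arrays, 4894 to 7702 on the protected arrays and 6571 in untreated islets. Their median log2 difference from untreated islets was −2.72 in the diabetogenic and −2.08 in the protected arm, with 0 of the 10 passing. Ins2, an insulin gene, carried most of the sum on every array (3700 of 3837 on the diabetogenic array of day 4), and on that day 4 array Slc2a2 stood at 3.79, Pdx1 at 3.01 and G6pc2 at 1.16. Acinar genes were also present, with 14 tested genes summing to 323 to 2455 on the diabetogenic arrays, 1342 to 7208 on the protected arrays and 3388 in untreated islets.

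Of the 22 member probe sets, 19 were at or above their array's median intensity on at least 2 of the 8 arrays and 3 were not. For testing, each gene was represented by its passing probe set with the highest mean, which left all 10 members among 16396 genes. Values were analysed as log2(intensity + 2.155), the scale of every difference and fold below unless a ratio of intensities is named; it understates the change of dim genes. The value 1 is the bottom of the deposited scale. In these bulk samples fewer cells of a type and less RNA per cell cannot be told apart.

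**Figure D1:**
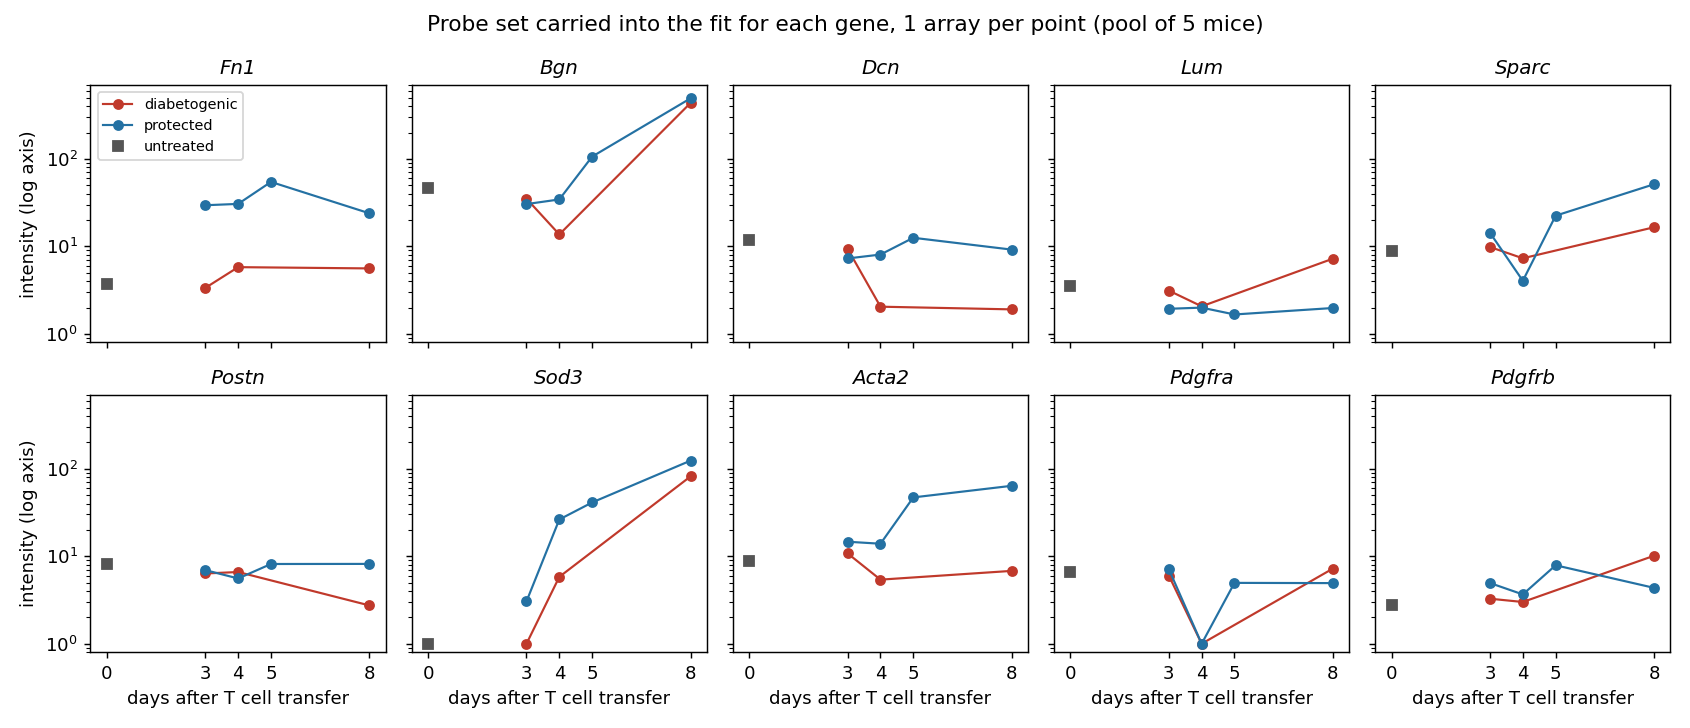
Intensity (log axis) against days after T cell transfer for the probe set carried into the fit for each of the 10 genes, with diabetogenic arrays in red, protected arrays in blue and the untreated array as a grey square at day 0. Each point is 1 array. Fn1 and Acta2 lay higher on all 4 protected arrays than on the 4 others, and Bgn and Sod3 were highest on both day 8 arrays.

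The first comparison asked what differed between infiltrated islets with interferon-γ and those in which it was neutralised. Fn1 was the member that passed: diabetogenic islets held 4.30-fold less of it than protected ones (−2.10 ± 0.39 on the log2 scale, SE over 3 pairs of arrays, limma with day as a block, adjusted p = 0.0122 over all genes). Among all 16396 genes 0.110% were called in either direction, 0.0915% as lower and 0.0183% as higher. Of the other 9 members, 6 had a negative and 3 a positive difference and none passed (adjusted p from 0.344 to 0.968, and 3 with an unadjusted p under 0.05: Acta2, Sod3 and Dcn). At that unadjusted level there were 1471 of all 16396 genes. The median difference of the 10 members was −0.42, against −0.07 over all genes. Of all 16396 genes, 9342 had a negative and 7054 a positive difference between the arms.

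Fn1 stood at 3.36, 5.80 and 5.61 in diabetogenic islets on days 3, 4 and 8, at 29.6, 30.6, 54.6 and 23.9 in protected islets on days 3, 4, 5 and 8, and at 3.73 in untreated islets. The lowest protected value was thus above the highest of the 4 other arrays, and the diabetogenic arrays stayed close to the untreated level. Within its array the probe set lay between the 50 and 75.5 percentile on the diabetogenic arrays, between the 95.5 and 98.3 percentile on the protected arrays and at the 54.6 percentile in untreated islets. The difference was largest on day 3 (5.75-fold), when the 2 arrays had 4.74% and 5.34% bright probe sets, and was 4.12-fold on day 4 and 3.36-fold on day 8. The part of overall signal in the Fn1 result was not tested. Without the day 3 pair it was −1.89 ± 0.55 (adjusted p = 0.0711), and without the day block adjusted p was 1.

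The call rested on 1 of 2 probe sets. The second Fn1 probe set (1437218_at) was dim, standing at 1.71, 5.00 and 4.02 on the diabetogenic arrays, at 3.82, 2.32, 7.74 and 1.39 on the protected arrays and at 1.60 in untreated islets. Its mean difference was 0.28, with the arms overlapping. The mean of both probe sets gave −0.91 ± 0.29 (adjusted p = 0.698), and adjusted p was 0.179 after quantile normalization and 0.0919 after cyclic loess (0.000506 to 1 over all 14 alternatives).

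Against untreated islets, Fn1 in the protected arm differed by 2.58 ± 0.79 (unadjusted p = 0.00491, rank 26 of 16396), but adjusted p was 1. In the diabetogenic arm it differed by 0.25 ± 0.82 (adjusted p = 0.969). Both values share the single untreated array, whose spread is assumed equal to that between days.

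The 3 tested genes whose pattern was most like that of Fn1 over the 8 arrays were the chemokine gene Ccl9 (Pearson r = 0.964), Flrt3, a leucine-rich membrane protein gene (0.964), and the eosinophil-attracting chemokine gene Ccl24 (0.957). These values of r describe 8 arrays and carry no test, and all of these genes differed between the arms in the same fit. Flrt3 lay below the array median in untreated islets (1.65) and in diabetogenic islets of days 3, 4 and 8 (1.3, 1.42 and 1). The last of these is the bottom of the scale. Only protected arrays, with values of 5.83 to 14.93, carried Flrt3 past the filter. The size of its difference between the arms depends in part on the pseudocount. Ccl9 stood at 4.90, 2.51 and 11 on the diabetogenic arrays, at 54.6, 78.0, 104.1 and 37.1 on the protected arrays and at 3.61 in untreated islets. Like Fn1, all 3 genes were highest on the protected array of day 5, a likeness that their selection by r favours. That array also had the highest Actb 3' to 5' ratio (24.2). The same ratio for Gapdh was 6.4 on that array, against 2.78 to 19 on the others. The part of RNA quality was not tested.

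**Figure D2:**
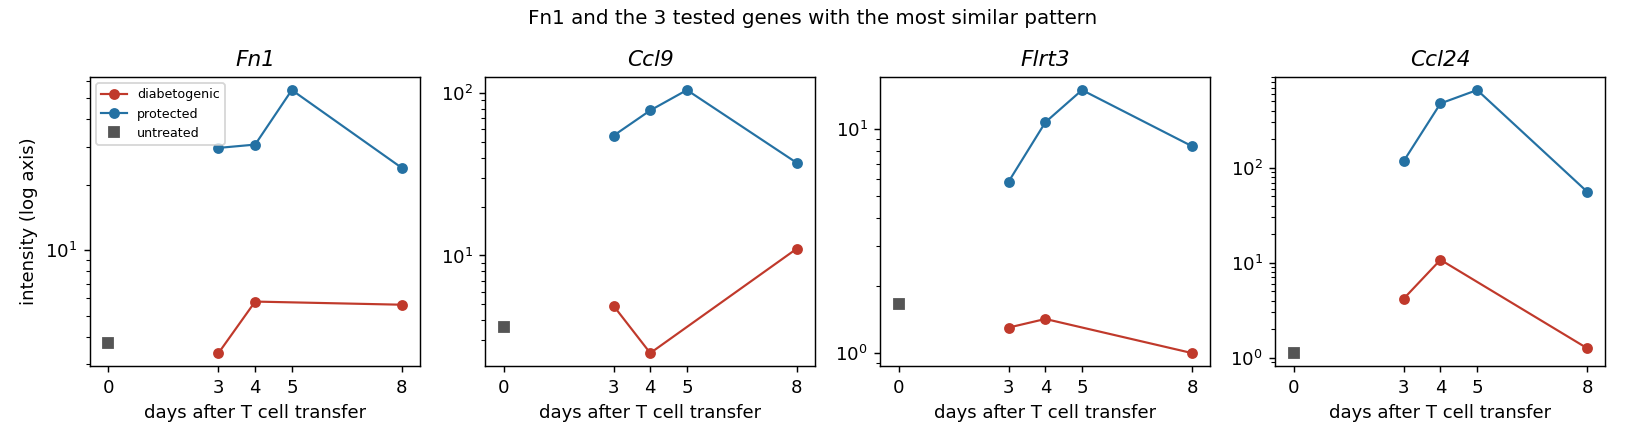
Intensity (log axis, scaled to each panel) against days after T cell transfer for Fn1 and for Ccl9, Flrt3 and Ccl24, with diabetogenic arrays in red, protected arrays in blue and the untreated array as a grey square. In each panel the 4 protected arrays lie above the 4 others, but Ccl9, Flrt3 and Ccl24 were picked for their likeness to Fn1 over these arrays. Protected Ccl24 reached 659 on day 5 and Fn1 54.6.

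Genes of alternatively activated macrophages were also lower in the diabetogenic arm. All 7 tested genes of that list had a negative difference between the arms, and 4 passed (Ccl24, Chil3, Retnla and Arg1), against 0.0915% of all genes called lower. Their summed intensity was 32.9 to 39.6 on the diabetogenic arrays, 240 to 1285 on the protected arrays and 18.2 in untreated islets. Of 10 general macrophage markers, 9 had a negative difference, as had 9342 of all 16396 genes. The median difference of the 10 was −0.59, against −0.07 over all genes. Cd163, a scavenger receptor gene, passed (−1.89 ± 0.36, adjusted p = 0.0172). The general list summed to 155 to 1258 on the diabetogenic arrays, 236 to 1507 on the protected arrays and 65.1 in untreated islets, so its arms overlapped, with Csf1r alone giving up to 1386 of the sum. Cd163 on the diabetogenic array of day 8 and Chil3 on the untreated array were at the bottom of the scale, and Cd68, Adgre1 and Csf1r were not on any array. Arg1, Retnla and Ccl24 were close to the bottom on the diabetogenic array of day 8, at 1.07, 1.21 and 1.26. The sizes of such differences depend in part on the pseudocount. Of 8 endothelial markers 0 passed and 6 were negative, with the growth factor receptor gene Kdr at −1.22 ± 0.38 and Eng at −0.59 ± 0.35, and their sum was 24.6 to 36.6 on the diabetogenic arrays, 24.5 to 60.8 on the protected arrays and 38.7 in untreated islets. The part of macrophages in the Fn1 result was not tested.

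Acta2 had the next lowest difference among the members and did not pass (−1.45 ± 0.44, adjusted p = 0.344). It stood at 10.8, 5.40 and 6.80 in diabetogenic islets on days 3, 4 and 8, at 14.6, 13.9, 47.0 and 63.8 in protected islets on days 3, 4, 5 and 8, and at 8.92 in untreated islets. The arms did not overlap, and their distance was widest on day 8, at 7.36-fold, against 1.30-fold on day 3 and 2.12-fold on day 4. Without the day 8 pair the difference was −0.73 ± 0.47 (adjusted p = 0.859), so much of it came from that pair. On the day 8 protected array the intensity was 7.15 times that of untreated islets.

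This probe set carries the suffix _s_at, which Affymetrix gives to probes shared by several transcripts, so signal from a related actin cannot be told apart from Acta2. The Acta2 probe sets 1456658_at and 1444105_at were at or above the array median on 2 and 1 of the 8 arrays and gave mean differences of 0.37 and −0.26. Actg2, the smooth muscle actin most like Acta2, stood at 1.93 to 5.82 on all 8 arrays. Tagln, another smooth muscle gene, stood at 4.94, 1.57 and 2.00 on the diabetogenic arrays, at 7.28, 1.55, 7.94 and 15.5 on the protected arrays and at 4.69 in untreated islets (−0.83 ± 0.37, adjusted p = 0.518). Its highest value was on the same protected day 8 array as that of Acta2, whereas on day 4 its arms were level; Actg2 and Tagln were named here after their values were seen.

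Across the whole set, Fn1 and Acta2 were the 2 of 10 members for which all 4 protected arrays exceeded the 4 others, as did 1.33% of all genes. Lum was the 1 member for which they all lay below, as did 0.872% of all genes. Fn1, Sod3 and Acta2 were lower in diabetogenic islets on all 3 matched days, as were 20.1% of all genes (for Sod3 on day 3 from values below the array medians), and Lum was higher on all 3, as were 11.7%. Both Lum patterns rested on dim values, with 2.07 in diabetogenic against 2.00 in protected islets on day 4. Lum passed the filter only through the untreated and the diabetogenic day 8 arrays, where it was highest.

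**Figure D3:**
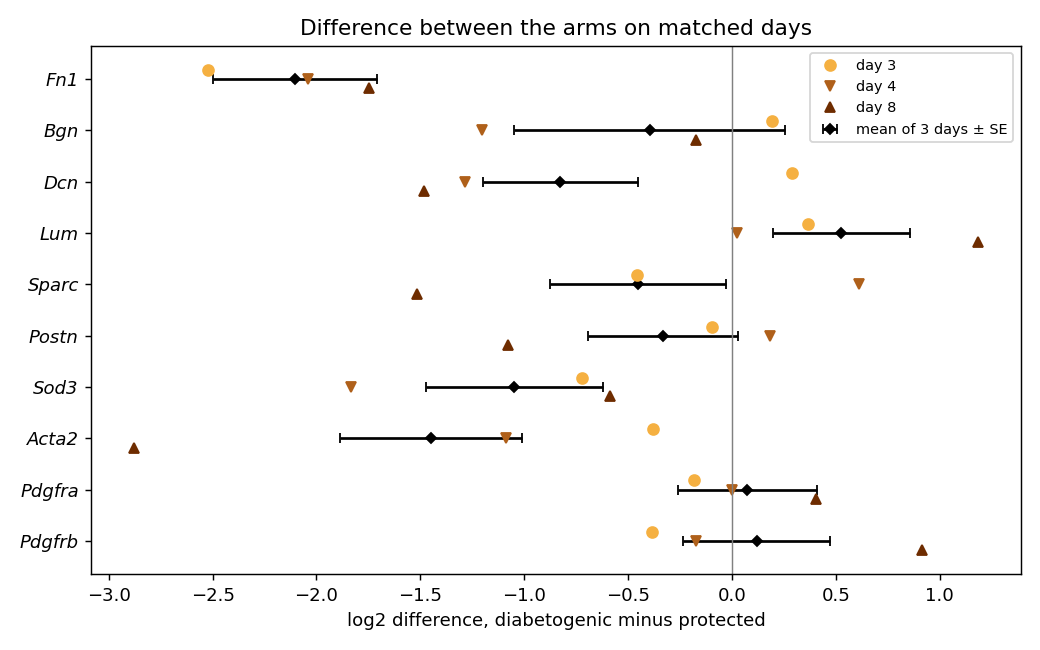
Log2 difference, diabetogenic minus protected, for the 10 genes on day 3 (circles), day 4 (downward triangles) and day 8 (upward triangles), with the mean of the 3 days and its SE from the fit as black diamonds and bars. Fn1 lies between −2.52 and −1.75 on every day, Acta2 between −2.88 and −0.38, and Bgn, Dcn, Sparc, Postn, Pdgfra and Pdgfrb have day values on both sides of 0 or at 0.

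The proteoglycans did not move alike. Decorin is a collagen-binding proteoglycan that also sequesters TGF-beta. Dcn stood at 9.38, 2.05 and 1.91 in diabetogenic islets on days 3, 4 and 8, at 7.29, 8.08, 12.6 and 9.20 in protected islets on days 3, 4, 5 and 8, and at 11.8 in untreated islets. The protected arrays stayed near the untreated level, while the diabetogenic arrays of days 4 and 8 lay below their array medians. The difference over the 3 days was −0.83 ± 0.37 (adjusted p = 0.524), with 1.22-fold higher on day 3 and 2.43-fold and 2.79-fold lower on days 4 and 8. A second Dcn probe set (1441506_at) stood at 4.31, 8.31 and 3.18 on the diabetogenic arrays, at 4.70, 8.60, 11.7 and 8.87 on the protected arrays and at 4.07 in untreated islets. It gave 2.07-fold lower on day 8 and 1.03-fold lower on day 4, so the day 4 difference rested on 1 probe set.

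Acinar genes, which encode the digestive enzymes of the exocrine pancreas, also had low values on those diabetogenic arrays. All 14 tested had a negative difference over the 3 days, as had 9342 of all 16396 genes, and none passed (Prss2, a trypsinogen gene, at −2.37 ± 1.08). The 14 genes summed to 323 and 380 in diabetogenic islets on days 4 and 8, against 7208 and 2185 in protected islets. Cela1, an elastase gene, stood at 5.08 and 5.02 in diabetogenic islets on those days, against 298 and 36.5 in protected islets. No acinar gene was exactly at the bottom of the scale, but the lowest acinar value, 1.02 on the diabetogenic array of day 8, was next to it. The part of acinar tissue and of the lower share of bright probe sets in the values of Dcn and Acta2 was not tested.

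Lumican organises collagen fibrils in the cornea and other connective tissue. Lum, with a single probe set, stood at 3.13, 2.07 and 7.25 on the diabetogenic arrays, at 1.94, 2.00, 1.67 and 1.98 on the protected arrays and at 3.51 in untreated islets. It was at or above the array median on 2 arrays, the untreated array and the diabetogenic array of day 8, and its difference of 0.53 ± 0.33 did not pass (adjusted p = 0.646). On the other 6 arrays it lay below the array median.

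The second question was how the members changed with time after transfer. Bgn and Sod3 had the steepest changes per day over the 7 arrays of injected mice, with the arm in the model: 0.84 ± 0.20 log2 units per day for Bgn (unadjusted p = 0.000650, rank 27 of 16396) and 0.86 ± 0.15 for Sod3 (unadjusted p = 5.03e-05, rank 2). Neither passed over all genes (limma, adjusted p = 0.394 and 0.346), and no gene did (0 of 16396 called, 1475 with an unadjusted p under 0.05). Both passed without the diabetogenic array of day 4, the one with the fewest bright probe sets (adjusted p = 0.0269 for Bgn and 0.0251 for Sod3), and after cyclic loess (0.0225 and 0.0256). Over the alternatives adjusted p ran from 0.0225 to 0.999 for Bgn and from 0.0251 to 0.999 for Sod3. The other 8 members had changes of −0.08 to 0.31 per day, and none passed (adjusted p from 0.555 to 0.998).

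Bgn stood at 35.1, 13.7 and 436 in diabetogenic islets on days 3, 4 and 8, at 30.5, 34.4, 106 and 492 in protected islets on days 3, 4, 5 and 8, and at 46.5 in untreated islets. Its intensity on day 8 was 12.4 times that on day 3 in the diabetogenic arm and 16.2 times in the protected arm. Both day 8 arrays exceeded all 6 others, by 9.39 and 10.6 times over untreated islets. The arms were close on days 3 and 8 and 2.31-fold apart on day 4 (−0.40 ± 0.65 over the 3 days, adjusted p = 0.883, 95% interval −1.72 to 0.93).

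All 3 Bgn probe sets shared this course. Probe set 1448323_a_at stood at 5.46, 1.61 and 49.7 on the diabetogenic arrays, at 5.31, 3.68, 17.4 and 65.3 on the protected arrays and at 6.28 in untreated islets. Probe set 1437889_x_at stood at 4.52, 4.25 and 32.1 on the diabetogenic arrays, at 4.35, 2.56, 18.1 and 64.2 on the protected arrays and at 7 in untreated islets. In each, the day 8 arrays of both arms were the highest and the protected array of day 5 came next, with changes of 0.69 ± 0.14 and 0.63 ± 0.14 per day when every probe set was fitted (adjusted p = 0.284 for both).

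Sod3 stood at 1, 5.81 and 81.7 in diabetogenic islets on days 3, 4 and 8, at 3.05, 26.3, 41.1 and 124 in protected islets on days 3, 4, 5 and 8, and at 1 in untreated islets. It was listed at this lowest value in diabetogenic islets on day 3 and in untreated islets, and reached the 99.1 and 99.3 percentile on day 8 in diabetogenic and protected islets. With 2 values at the bottom of the scale, the size of its change per day depends on the pseudocount, with 0.64 per day at 4 times the pseudocount and 0.99 at the smaller one tried. The diabetogenic array was 3.57-fold lower on day 4 and 1.5-fold lower on day 8 (−1.05 ± 0.43 over the 3 days, adjusted p = 0.487). On day 3 it was also lower, but both values lay below their array medians and the size is set by the pseudocount; without that pair the difference was −1.21 ± 0.70 (adjusted p = 0.55). A second Sod3 probe set (1417634_at) did not pass the filter on low values, standing at 1.09 to 2.36 on the diabetogenic arrays, 1.27 to 4.78 on the protected arrays and 1.65 in untreated islets, and showed no such course.

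Sod1 and Sod2 encode the superoxide dismutases of the cytosol and the mitochondria. Sod1 stood at 288, 15.6 and 116 on the diabetogenic arrays, at 280, 95.8, 116 and 123 on the protected arrays and at 421 in untreated islets, and neither it nor Sod2 passed in any comparison.

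The Actb 3' to 5' ratio was 13.8 on day 8 and 5.54 on day 3 in diabetogenic islets, 10.5 on day 8 and 5.01 on day 3 in protected islets, and its part in the changes per day was not tested. The spiked controls separate the untreated and day 3 arrays from the 5 later ones, the same order as the days, so this split and time cannot be told apart. On the 5 later arrays, of which the protected array of day 5 had a spiked control median of 551 and the 4 others 1559 to 1712, the change per day was 1.04 ± 0.24 for Bgn (adjusted p = 0.0242) and 0.68 ± 0.20 for Sod3 (adjusted p = 0.183), in a fit chosen after the data were seen. The spiked controls differed within these arrays too, and the part of the split in the changes per day was not tested. Bgn and Sod3 were the 2 of 10 members for which both day 8 arrays exceeded the 6 others, as did 5.03% of all genes; for 0 members both lay below, against 3.76% of all genes.

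**Figure D4:**
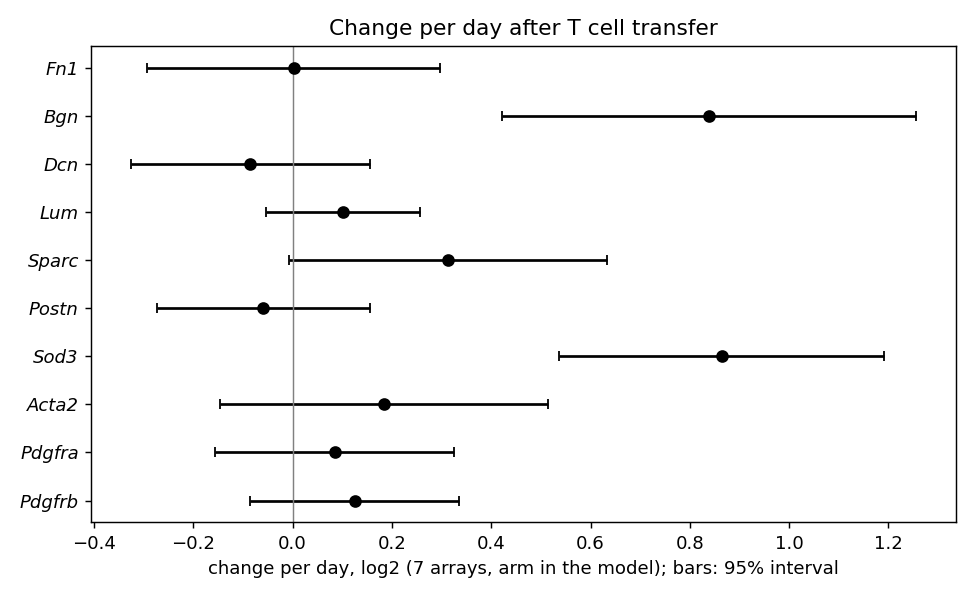
Change per day in log2 units for the 10 genes, fitted over the 7 arrays of injected mice with the arm in the model; points are estimates and bars 95% intervals. Bgn at 0.84 (0.42 to 1.26) and Sod3 at 0.86 (0.54 to 1.19) stand to the right of the other 8 genes, which lie between −0.08 and 0.31; none passed after adjustment over all genes.

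The matricellular genes differed from each other. Sparc stood at 9.85, 7.32 and 16.6 in diabetogenic islets on days 3, 4 and 8, at 14.3, 4.05, 22.5 and 51.4 in protected islets on days 3, 4, 5 and 8, and at 8.86 in untreated islets. Its arms overlapped (−0.45 ± 0.42, adjusted p = 0.764), with 2.86-fold lower on day 8 and 1.53-fold higher on day 4 in the diabetogenic arm. A second probe set (1448392_at) stood at 13.1, 6.92 and 7.80 on the diabetogenic arrays, at 18.1, 2.63, 9.38 and 13 on the protected arrays and at 9.05 in untreated islets. It shared the low day 4 values but not the high day 8 one, and the third (1458204_at) was instead highest on both day 4 arrays, at 10.7 and 9.73.

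Periostin is a matrix protein of fibroblasts in wounds and fibrosis. Postn, with a single probe set, stood at 6.35, 6.60 and 2.74 on the diabetogenic arrays, at 6.94, 5.57, 8.15 and 8.17 on the protected arrays and at 8.10 in untreated islets. It varied little, the diabetogenic array of day 8 excepted (2.11-fold lower on that day, −0.33 ± 0.36 over the 3 days, adjusted p = 0.801).

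The platelet-derived growth factor receptors showed no shared course. Pdgfra stood at 6.01, 1 and 7.23 on the diabetogenic arrays, at 7.11, 1, 4.96 and 4.93 on the protected arrays and at 6.69 in untreated islets, so that both day 4 arrays gave the lowest value possible. Its difference between the arms was 0.07 ± 0.33 (adjusted p = 0.968, 95% interval −0.61 to 0.76). The other 2 Pdgfra probe sets gave mean differences of −0.16 and −0.23. In untreated islets 1421916_at stood at 1.32 and 1421917_at at 7.53.

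Pdgfrb stood at 3.27, 3.00 and 10.1 on the diabetogenic arrays, at 4.94, 3.66, 7.88 and 4.35 on the protected arrays and at 2.80 in untreated islets (0.12 ± 0.35, adjusted p = 0.949, 95% interval −0.60 to 0.84). Its second probe set (1417148_at) was below the array median on all 8 arrays. The 4 ligand genes of these receptors, Pdgfa, Pdgfb, Pdgfc and Pdgfd, included none that passed, with Pdgfa at −0.47 ± 0.36 and Pdgfd at 0.39 ± 0.38.

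**Figure D5:**
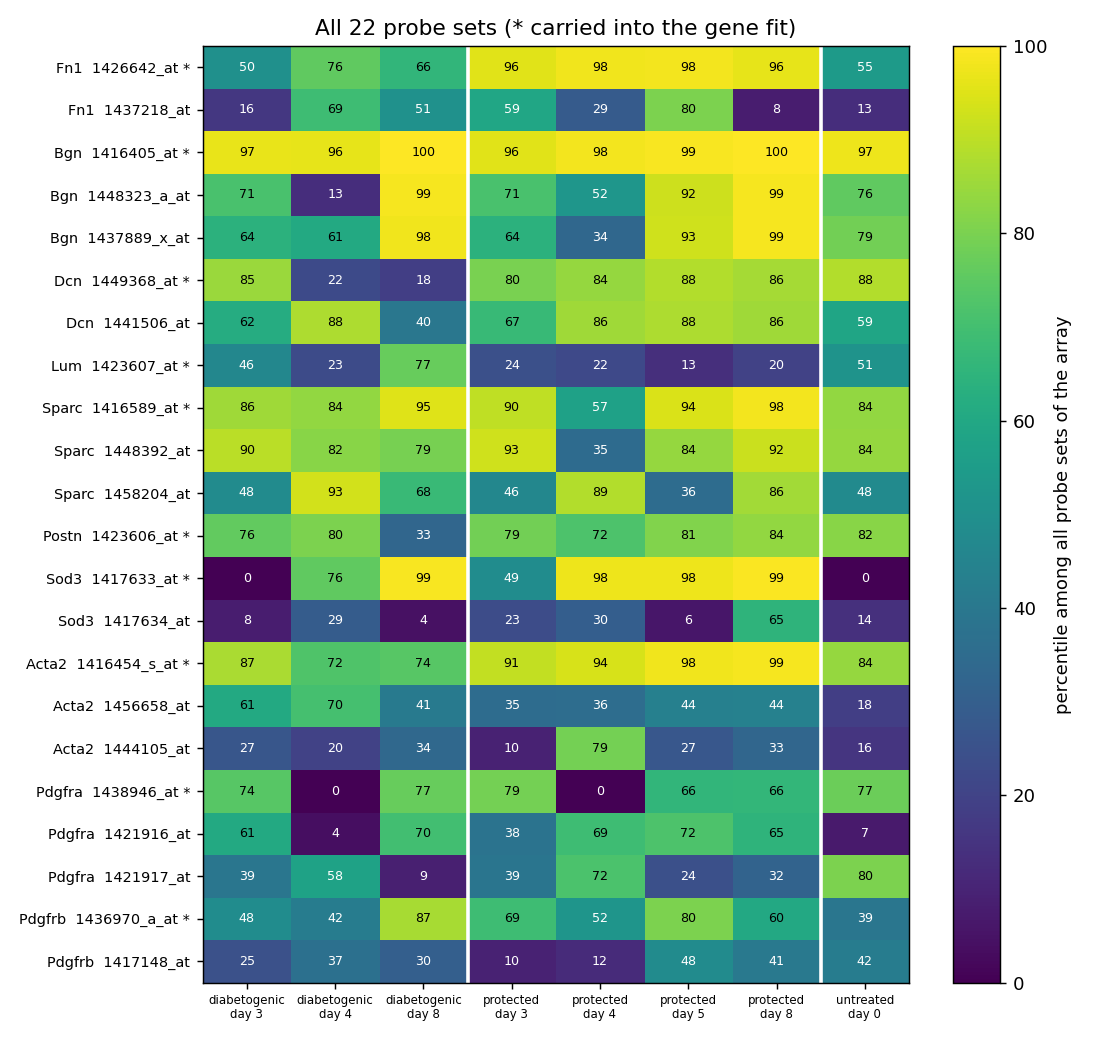
Percentile of each of the 22 member probe sets among all probe sets of its array, from 0 (dark) to 100 (yellow), with diabetogenic arrays in the left columns, protected arrays in the middle and the untreated array on the right; an asterisk marks the probe set carried into the fit. All 3 Bgn probe sets reach at least the 98 percentile on both day 8 arrays, whereas the 2 Fn1 probe sets and the 3 Acta2 probe sets differ from each other.

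On single days, with 1 array per arm and no test, 1 of 10 members was at least 2-fold lower in diabetogenic islets on day 3, as were 0.506% of all genes. On day 4 it was 5 members (Fn1, Bgn, Dcn, Sod3 and Acta2) and 14.1% of all genes, and on day 8 it was 5 (Fn1, Dcn, Sparc, Postn and Acta2) and 13.9%. Lum was the 1 member at least 2-fold higher on day 8, as were 9% of all genes, and 0 members were on days 3 and 4, as were 1.34% and 5.78%.

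Against untreated islets no member passed in either arm, and no gene of 16396 did (0% called in each arm by limma, with 450 genes in the diabetogenic and 371 in the protected arm at an unadjusted p under 0.05). At that level there were 0 members in the diabetogenic arm and 2, Fn1 and Sod3, in the protected arm. Sod3 differed by 2.02 ± 1.58 in the diabetogenic and 3.25 ± 1.53 in the protected arm, with the untreated value at the bottom of the scale, so neither size can be read exactly. Leaving out 1 array of the arm, the Sod3 difference ranged from 0.67 (without day 8) to 3.03 (without day 3) in the diabetogenic arm and from 2.56 (without day 8) to 4.09 (without day 3) in the protected arm. Acta2 differed by −0.21 ± 0.98 in the diabetogenic and 1.46 ± 0.95 in the protected arm. Dcn differed by −1.26 ± 0.71 and −0.30 ± 0.69.

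Other genes of the matrix were counted from lists, beside 9342 of all 16396 genes with a negative difference between the arms. Of 26 tested matrix glycoproteins other than the members, 0 passed between the arms, 16 were negative and 10 positive, and the median was −0.09, with Mgp, an inhibitor of calcification, at −0.98 ± 0.49 and Tgfbi, a TGF-beta-induced matrix protein, at −0.92 ± 0.70. Of 20 other proteoglycans, 0 passed, 15 were negative and the median was −0.22. Srgn, the proteoglycan of leukocyte granules, was at −2.11 ± 0.52 (adjusted p = 0.164), and Agrn, of basement membranes, at −1.49 ± 0.40 (adjusted p = 0.226). Of 18 other fibroblast and mural cell genes, 0 passed and 14 were negative, with S100a4, also expressed by leukocytes, at −1.34 ± 0.41 and Lox, a collagen cross-linking oxidase, at 1.0 ± 0.35. Of 15 receptors of fibronectin and matrix, 0 passed and 8 were negative, with the hyaluronan receptor gene Cd44 at −1.06 ± 0.39 and Itga2b at −1.02 ± 0.37. Of 14 genes of the TGF-beta pathway, which induces Fn1 and Acta2 in fibroblasts, 0 passed and 9 were negative, with Smad4 at −0.73 ± 0.42 and Inhba at 0.64 ± 0.36. Among 6 duct, 7 T cell and 4 other islet endocrine markers 0 passed between the arms.

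Timp1, a secreted metalloproteinase inhibitor, was the 1 of 10 tested TIMPs and metalloproteinases that passed between the arms (−2.87 ± 0.47, adjusted p = 0.00161). Like Fn1, it was higher on every protected array, standing at 7.32, 5.18 and 8.48 on the diabetogenic arrays, at 34.5, 100.4, 152 and 74.7 on the protected arrays and at 2.28 in untreated islets. Of 14 collagens 0 passed between the arms and 13 had a positive change per day, with a median of 0.21 per day against −0.002 over all genes; 0 passed in that fit too. Between the arms Col1a2 differed by −0.92 ± 0.55 and Col6a1, of microfibrillar collagen, by −0.72 ± 0.44. Col1a2, a chain of fibrillar collagen, stood at 9.34, 12.4 and 223 on the diabetogenic arrays, at 13.8, 35.2, 161 and 428 on the protected arrays and at 12 in untreated islets. Like Bgn, it was highest on the day 8 array of each arm. The difference in change per day between the arms was tested for the members and passed for none (adjusted p = 1 for each).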

How the data were processed

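The labels' protocols describe methanol-fixed frozen sections, column extraction of RNA, pooling of 5 mice per array, amplification and biotin labelling. The authors deposited intensities per probe set on a linear scale; their summarisation and scaling steps are not given in the sources used. Medians of log2 intensity differed between arrays by at most 0.21, below the limit of 0.3, and the deposited scale was kept. The number of arrays limits the precision.

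Names came from the platform annotation of 2016, and 64 control probe sets were not tested. The pseudocount was the median of the arrays' lower quartiles. Probe sets reaching their array median on 2 or more arrays were eligible, and the eligible one with the highest mean log2 value stood for its gene.

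Fits used limma 3.58.1 (R 4.3.3; lmFit, then eBayes with trend), Benjamini-Hochberg adjustment over 16396 genes and a threshold of 0.05. Arms were compared on the 6 arrays of matched days, blocked by day because each of these days has 1 array per arm. The sample titles give arm and day only, so pairing by day was a choice of the fit. Untreated islets entered a fit of 8 arrays, and the change per day used 7 arrays with arm as a term. SEs of the matched-day fit rest mostly on genes of like level (2 degrees of freedom from the gene itself, 29.99 from the trend). Fits were tested on simulated data. Of changes of 2 log2 units, 96% were recovered between the arms, with 14 false calls. The simulation had independent normal noise with the spread of the fit, no day effects and 200 changed genes. The data gave 18 called genes, and more changed genes make the adjusted threshold easier to reach. Recovery in the data may therefore be lower, and members that did not pass between the arms may still differ. Against untreated islets 15% were recovered in the diabetogenic and 27% in the protected arm, so members that did not pass there may still differ. Of changes of 0.5 log2 units per day 44% were recovered. Alternatives varied the pseudocount, filter, scaling, probe sets, variance model, block and arrays. Genes named beside the members are those of a list that passed, or else its 2 largest differences between the arms, and the 3 genes most like Fn1. Cd68, Adgre1 and Csf1r were exceptions, and the other exceptions are marked where they appear. Members and lists were chosen with earlier results of these data known.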

Additional observations from a re-analysis of the deposited data

How the results depend on the processing

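Between the arms, 127 of 139 recomputed values kept their direction and side of the threshold. The 18 called genes became 8 at 4 times the pseudocount, 10 without a filter, 51 with the filter at 4 of 8 arrays, 11 without the variance trend, 1 after quantile normalization, 1 with the mean of a gene's probe sets and 0 without the day block. Leaving out a day pair gave 33 to 69 genes and 0 to 1 members. The 1 called member became 0 after quantile normalization (Fn1 −2.10), cyclic loess (−1.67), with the mean of probe sets (−0.91) and without the replicate block, which pairs arrays by day (−2.10). Fn1 ranged from −2.28 to −1.89 with a day pair left out. Bgn turned to 0.43 after cyclic loess and Pdgfra to −0.11 with the mean of probe sets. With a pair left out, Bgn ranged from −0.69 to 0.0095, Sparc from −0.99 to 0.0775, Postn from −0.59 to 0.042, Pdgfra from −0.091 to 0.20 and Pdgfrb from −0.28 to 0.37.

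Against untreated islets, the diabetogenic difference turned to −0.0645 for Lum and 0.63 for Acta2 after cyclic loess and to 0.22 for Acta2 with the mean of probe sets. Cyclic loess moved the median difference of all genes there to 0.007, against −0.101 on the deposited scale. With an array left out it ranged from −1.00 to 1.39 for Bgn, from −0.26 to 0.32 for Lum and from −0.047 to 0.44 for Sparc. In the protected arm Dcn turned to 0.21 with the mean of probe sets. The count of genes called there was 1 after quantile normalization, 1 with every probe set fitted and 0 to 1 with an array left out.

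For the change per day, 0 called genes became 13 after cyclic loess (2 members), 2 without the trend, 14 (1 member) on the 5 arrays of day 4 and later, an alternative chosen after seeing the data, and 0 to 7 (0 to 2 members) with an array left out. Fn1, near 0, was −0.0091 at 4 times the pseudocount, −0.0215 after median centring, −0.012 with the mean of probe sets and −0.082 on the 5 later arrays. With an array left out Fn1 ranged from −0.044 to 0.11, Dcn from −0.15 to 0.0265, Lum from −0.0097 to 0.17, Postn from −0.14 to 0.0555, Pdgfra from −0.0202 to 0.17 and Pdgfrb from −0.0087 to 0.26. The cause of these changes was not tested. Each arm and day is 1 pool, and dim probe sets near the array median limit what can be read for Lum, Pdgfra and Pdgfrb.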
